A study of Mus musculus with 12 samples.

Results

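Slc13a2, its antisense gene Slc13a2os and Noct were 3 of the 17112 genes measured by RNA-seq in mouse small intestine, and were picked by name because they had been seen low in mice whose dietary zinc was bound through the hydroxy end of an organic complex. The tissue is given as the whole small intestine of 12 C57BL/6 mice, with 1 library per mouse. Each mouse was either wild type (WT) at Zip4, heterozygous (HET) for its loss, or a knockout (KO). Zip4 is the product of Slc39a4 and brings dietary zinc into the enterocyte. The zinc eaten was bound at the amino end of the complex in some mice and at the hydroxy end in others. This gave 6 groups of 2 libraries, here named by group and replicate (KO hydroxy 2 is the second KO mouse on the hydroxy complex). Sample labels put 15 ppm zinc in the WT and HET diets and 40 ppm in the KO diets, whereas the description of the series gives 15 ppm throughout, so genotype and zinc level cannot be told apart wherever KO is compared. WT mice were 210 to 237 days old, KO mice 198 to 240 days, and HET mice 141 and 363 days on the amino complex and 143 and 338 days on the hydroxy complex. All mice are labelled male except KO amino 2. Which part of Zip4 was deleted is not stated in the labels.

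Slc13a2 encodes the sodium-coupled dicarboxylate transporter often called NaDC1, which sits in the apical membrane of enterocytes and of kidney proximal tubule cells and takes up citrate, succinate and other intermediates of the citric acid cycle. Slc13a2os is a long non-coding RNA read from the opposite strand of the same locus. Noct encodes nocturnin, an enzyme of the same protein family as the CCR4 deadenylases that shorten the poly(A) tails of messenger RNA. It is known to act on the phosphate of NADP(H), its RNA oscillates with the circadian clock, and mice without it take up dietary fat poorly.

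Values were deposited as CPM (reads of a gene scaled to the size of its library), and low values rose in steps that put the depth at 26.0 to 38.8 M reads per library, so that 3 reads correspond to 0.0773 to 0.115 CPM (counting error only). Slc39a4, the targeted gene, stood at 42.0 to 91.6 CPM in the 4 KO libraries, 188 to 256 CPM in WT and 117 to 267 CPM in HET. HET amino 1 and HET hydroxy 1, from the older HET mice, held 117 and 145 CPM, below every WT library. HET amino 2 and HET hydroxy 2, from the younger HET mice, did not lie below the WT range. Slc39a4 thus did not set the younger HET mice below WT, and the part of age in this split was not tested. HET is used below as labelled. Sex-linked RNA went against the sex labels in the KO amino group. Xist, which females express, was at 244 CPM in KO amino 1 although that mouse is labelled male, and at 0.155 CPM in the mouse labelled female. The Y-linked Ddx3y was at the floor of the table in KO amino 1 and at 32.2 CPM in KO amino 2. All 8 enterocyte markers were present, with summed levels of 10762 to 23867 CPM. Fabp6, an ileal gene, stood at 259 CPM in WT hydroxy 1 and 99.3 CPM in HET amino 2 and below 1 CPM in the other libraries. Summed ileal markers ran from 72.2 to 593 CPM, highest in WT hydroxy 1. HET amino 2 also had the lowest sum of proximal markers (138 CPM, against 821 to 3502 CPM elsewhere). Libraries described as whole small intestine thus differed in ileal RNA, and the stretch of gut in each was not tested. Of 6 markers of kidney proximal tubule, the other main site of Slc13a2, the table lists 1, Slc34a1, at no more than 0.263 CPM. In whole tissue, fewer cells that make an RNA and less RNA per cell cannot be told apart.

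Slc13a2 lies on chromosome 11 from 78397276 to 78422186 on the minus strand and Slc13a2os from 78394485 to 78405658 on the plus strand (mm10, positions of the deposited table). In GENCODE M21, which is on the same assembly, Slc13a2 has 12 exons and Slc13a2os has 5. The last and longest exon of Slc13a2os covers exons 3, 4, 5 and 6 of Slc13a2 completely, which amounts to 632 bases, or 26.2% of the 2412-base Slc13a2 transcript and 17.4% of the 3627-base Slc13a2os transcript. Exon 6 is printed as an example of this shared stretch, since its reverse complement is contained in Slc13a2os. All of its 123 bases are coding.
Slc13a2 exon 6 (chr11:78403072-78403194, minus strand, GRCm38, no base marked): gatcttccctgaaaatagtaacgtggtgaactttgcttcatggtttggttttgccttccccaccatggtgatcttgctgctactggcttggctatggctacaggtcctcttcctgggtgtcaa
No source used here says whether the authors' counting used strand. Without strand, a read from this stretch cannot be assigned to Slc13a2 or to Slc13a2os. Slc13a2os stood at only 0.943% to 11.6% of Slc13a2 CPM, so its level is by far the more uncertain. How much of it came from reads of Slc13a2 was not tested, and this limit holds for all values of Slc13a2os below.

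**Figure D1:**
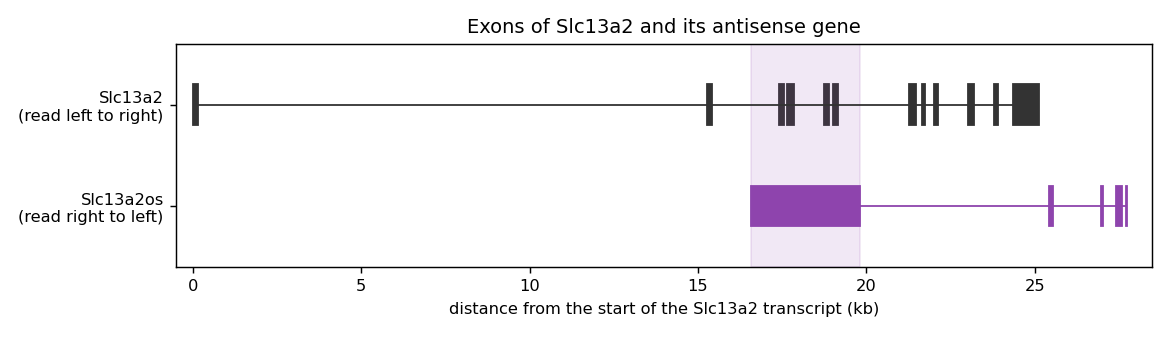
Exons (boxes) of Slc13a2 and Slc13a2os in GENCODE M21, plotted as distance in kb from the start of the Slc13a2 transcript. The shaded last exon of Slc13a2os spans 4 of the 12 exons of Slc13a2.

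Noct lies on chromosome 3 from 51224447 to 51251655 on the plus strand, with 3 exons in its main GENCODE transcript. Because Slc13a2 and Noct lie on different chromosomes and their log2 levels gave r = 0.85 over the 12 libraries (a description, since they were picked together), their promoters are shown as the 250 bases before the RefSeq start (GRCm38.p6), with capitals marking any match to the motifs searched.
Slc13a2 promoter (chr11:78422235-78422484, minus strand): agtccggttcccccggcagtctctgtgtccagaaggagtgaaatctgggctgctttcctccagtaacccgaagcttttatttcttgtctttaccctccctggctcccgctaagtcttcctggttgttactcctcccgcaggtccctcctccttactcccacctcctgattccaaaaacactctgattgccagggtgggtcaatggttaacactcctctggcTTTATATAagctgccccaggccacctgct
Noct promoter (chr3:51224197-51224446, plus strand): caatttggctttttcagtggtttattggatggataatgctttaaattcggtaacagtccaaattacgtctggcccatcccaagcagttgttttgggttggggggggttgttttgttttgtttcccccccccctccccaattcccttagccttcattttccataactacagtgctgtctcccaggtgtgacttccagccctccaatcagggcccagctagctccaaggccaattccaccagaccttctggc
The motifs, read on both strands, were the E-box CACGTG and the D-box TTANGTAA of clock factors, the nuclear receptor half-site AGGTCA, the cAMP response element TGACGTCA, the metal response element as TGCGCNC or TGCACNC, and TATANA. None was found before Noct or Slc13a2os. Before Slc13a2 the only match was TATANA, at 2 overlapping places between 29 and 22 bases before the start. Among 32851 RefSeq promoters of the same length, 22.6% hold TATANA, 6.02% the E-box, 2.06% the D-box, 14.0% the half-site, 1.55% the cAMP response element, and 12.5% and 10.4% the metal response element in its G and A forms.

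Slc13a2 was most abundant in WT mice on the amino complex. It stood at 382 and 296 CPM in WT amino 1 and 2 and at 133 and 139 CPM in WT hydroxy 1 and 2. In HET mice it was at 131 and 160 CPM with amino and 98.9 and 139 CPM with hydroxy, and in KO mice at 123 and 166 CPM with amino and 97.7 and 73.2 CPM with hydroxy. Both WT amino libraries thus lay above all other libraries. HET amino 2 and KO amino 2 also lay above every hydroxy library, while HET amino 1 and KO amino 1 fell within the range of HET hydroxy. By group mean the order was WT amino (339 ± 61.1 CPM, SD, n = 2), HET amino (145 ± 20.4), KO amino (145 ± 30.2), WT hydroxy (136 ± 4.89), HET hydroxy (119 ± 28.4) and KO hydroxy (85.4 ± 17.4). Of neighbours in this order, WT amino did not overlap HET amino, and HET hydroxy did not overlap KO hydroxy (98.9 CPM in HET hydroxy 1 beside 97.7 CPM in KO hydroxy 1). The other neighbours overlapped. The share of all genes separated in these pairs was not counted, so the separations only describe the values.

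Slc13a2os followed the same direction at much lower CPM. WT amino 1 and 2 held 23.2 and 13.9 CPM, and WT hydroxy 1 and 2 held 1.25 and 7.75 CPM, so the WT hydroxy mice lay far apart, both below the WT amino mice. HET mice stood close together within each complex, at 15.1 and 16.3 CPM with amino and 8.36 and 8.18 CPM with hydroxy. KO amino 1 and 2 held 3.69 and 11.4 CPM, and both KO hydroxy libraries stood near the bottom at 1.14 and 0.842 CPM, which corresponds to about 38 and 27 reads. By group mean the order was WT amino (18.5 ± 6.62 CPM, SD, n = 2), HET amino (15.7 ± 0.861), HET hydroxy (8.27 ± 0.127), KO amino (7.53 ± 5.43), WT hydroxy (4.50 ± 4.59) and KO hydroxy (0.991 ± 0.211). HET amino did not overlap HET hydroxy, and WT hydroxy did not overlap KO hydroxy. The other neighbours in this order overlapped. In HET, 8.16% of all genes had both hydroxy libraries below both amino libraries. For WT hydroxy and KO hydroxy the share was not counted.

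Noct was nearly flat among mice on the hydroxy complex and varied among mice on the amino complex. The 6 hydroxy libraries ran from 20.99 to 30.2 CPM, with WT at 21.5 and 22.6 CPM, HET at 30.2 and 29.0 CPM and KO at 20.99 and 21.8 CPM. With amino, WT stood at 79.3 and 62.5 CPM, HET at 28.7 and 55.5 CPM and KO at 31.8 and 54.6 CPM. The highest hydroxy library was thus above the lowest amino library, HET amino 1, which came from the oldest mouse. On the log2(CPM + 1) scale the SD over 6 libraries was 0.56 with amino and 0.22 with hydroxy for Noct, 0.66 and 0.37 for Slc13a2, and 0.81 and 1.17 for Slc13a2os. By group mean WT amino (70.9 ± 11.8 CPM, SD, n = 2) was followed by KO amino (43.2 ± 16.1), HET amino (42.1 ± 18.9), HET hydroxy (29.6 ± 0.870), WT hydroxy (22.1 ± 0.751) and KO hydroxy (21.4 ± 0.606). WT amino did not overlap KO amino, nor did HET hydroxy overlap WT hydroxy. The other neighbours overlapped. Here too the share of all genes separated in these pairs was not counted.

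**Figure D2:**
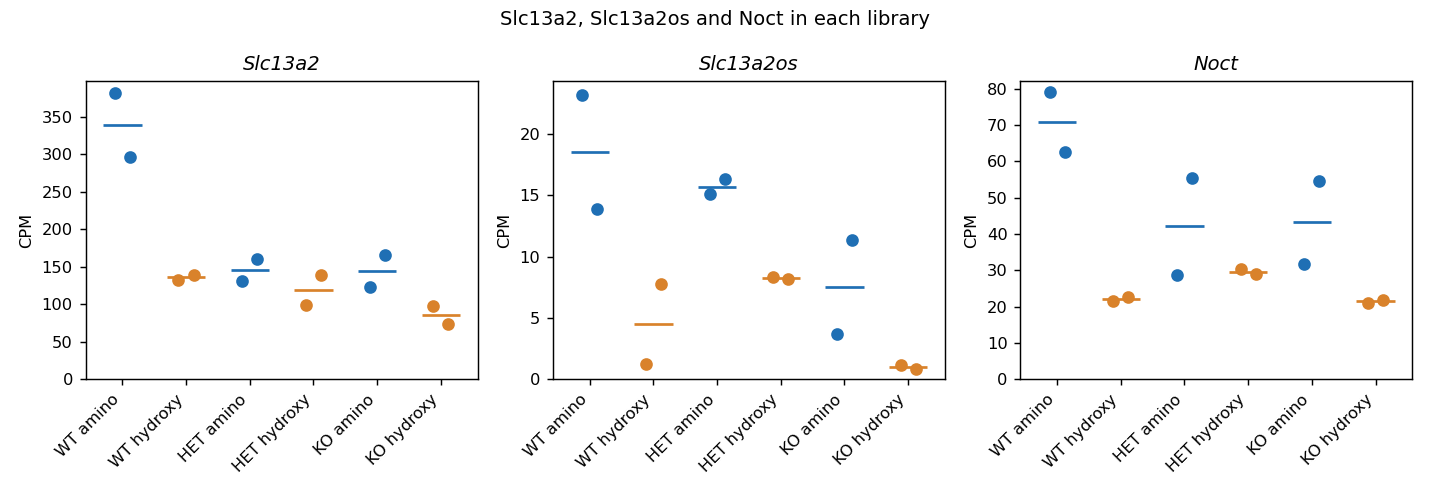
CPM of Slc13a2, Slc13a2os and Noct by group. Each point is 1 library (2 per group), horizontal lines are group means, blue is the amino and orange the hydroxy complex. Both WT amino libraries are the highest for Slc13a2 (296 and 382 CPM) and Noct (62.5 and 79.3 CPM).

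The difference between complexes is what the genes were picked for, so its sizes describe these libraries and carry no test. With the hydroxy complex the mean CPM of Slc13a2 was 40.1% of the amino mean in WT, 81.9% in HET and 59.1% in KO. The matching values were 24.2%, 52.6% and 13.2% for Slc13a2os and 31.1%, 70.3% and 49.6% for Noct. All 3 genes therefore had their smallest difference in HET mice, and Slc13a2 and Noct had their largest in WT mice. Log2 changes of CPM + 1 in WT were −1.30 (SE 0.25) for Slc13a2, −2.10 (SE 0.62) for Slc13a2os and −1.63 (SE 0.32) for Noct, against a median of 0.10 over 14001 genes. In HET they were −0.30 (SE 0.25), −0.85 (SE 0.62) and −0.42 (SE 0.32), and in KO −0.75 (SE 0.25), −1.94 (SE 0.62) and −0.93 (SE 0.32). Ranked from the lowest of 14001 genes by the mean change of the 3 genotypes, Slc13a2os (−1.63) was in place 2, Noct (−0.99) in place 11 and Slc13a2 (−0.78) in place 27. Whether the change differed between genotypes was not tested, because it is built from the contrast that chose the genes. Limma, a linear model fitted across all genes, called 0% of genes in each of these comparisons, while an unadjusted p under 0.05 was reached by 8.96% for the mean of the 3 genotypes, 1.03% in WT, 2.68% in HET and 13.7% in KO. Both hydroxy libraries lay below both amino libraries for all 3 genes in WT, where 5.48% of all genes did so, and in KO, where 16.8% did. In HET this held for Slc13a2os and not for Slc13a2 or Noct (8.16% of all genes). Slc13a2os met it in each of the 3 genotypes, as did 0.257% of all genes. None of the 3 had all 6 hydroxy libraries below all 6 amino libraries, which 0.00714% of genes had.

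Of the 8 enterocyte markers, 7 were below 0 with hydroxy in the mean of the 3 genotypes (median −0.42, beside 0.07 for all genes) and 0 passed the threshold. In WT 7 were below 0 (median −0.29), in HET 5 (median −0.04) and in KO all 8 (median −0.76, with lactase Lct at −1.57 and the peptide transporter Slc15a1 at −1.05, both named after their values were seen). Slc13a2, itself an enterocyte gene, stood at −1.30, −0.30 and −0.75 in the same order. The part of these markers in the levels of the 3 genes was not tested.

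Single mice set several of these sizes. Noct in HET changed by 0.043 when HET amino 2 was left out and by −0.88 when HET amino 1 was. Its direction thus rested on HET amino 2, a library with ileal Fabp6 that also came from the youngest mouse. That of Slc13a2 in HET was −0.06 without HET hydroxy 1, −0.16 without HET amino 2 and −0.54 without HET hydroxy 2. The WT difference of Slc13a2os was −1.12 without WT hydroxy 1, the other library with ileal Fabp6, and −3.08 without WT hydroxy 2. The parts of gut segment and age in these sizes were not tested. In KO, Noct stood at −0.55 without KO amino 2 and −1.31 without KO amino 1, and Slc13a2os at −1.24 and −2.64. With both KO amino libraries left out, the mean of the WT and HET differences was −0.80 for Slc13a2, −1.47 for Slc13a2os and −1.03 for Noct.

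**Figure D3:**
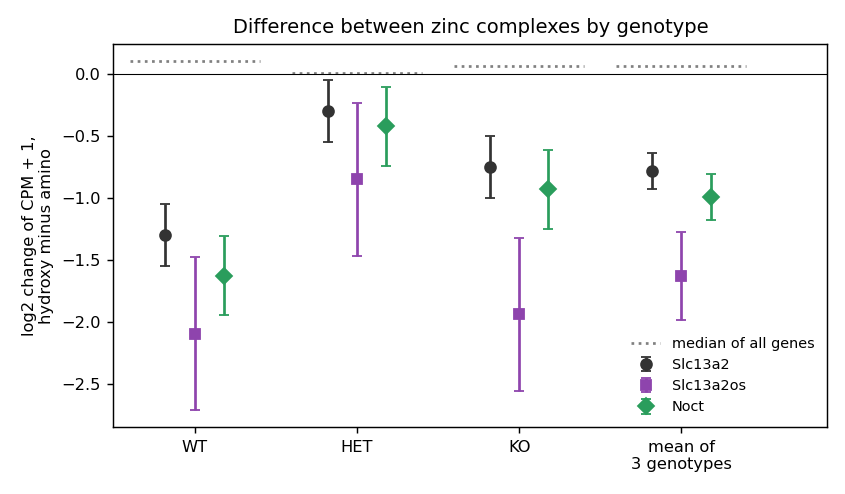
Log2 change of CPM + 1 with the hydroxy against the amino complex, by genotype and as the mean of the 3 genotypes. Points are model estimates, bars are 1 standard error, and dotted lines mark the median of all genes. Every point lies below 0, and each gene comes closest to it in HET (−0.30 to −0.85).

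Antisense and sense signal did not keep a fixed proportion. Slc13a2os CPM as a percentage of Slc13a2 CPM ran from 0.943% in WT hydroxy 1 to 11.6% in HET amino 1, with a median of 5.72% over 12 libraries. HET libraries held 5.88% to 11.6%, WT libraries 0.943% to 6.08% and KO libraries 1.15% to 6.85%. WT hydroxy 1 and both KO hydroxy libraries stood near 1%, and the next lowest was KO amino 1 at 2.99%. WT hydroxy 1 and 2 had nearly the same Slc13a2 (133 and 139 CPM) and percentages of 0.943% and 5.55%. They also differed in ileal Fabp6 (259 and 0.131 CPM), and the part of gut segment was not tested. The antisense percentages compare libraries only, since CPM is not corrected for transcript length and the strand setting is not known.

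**Figure D4:**
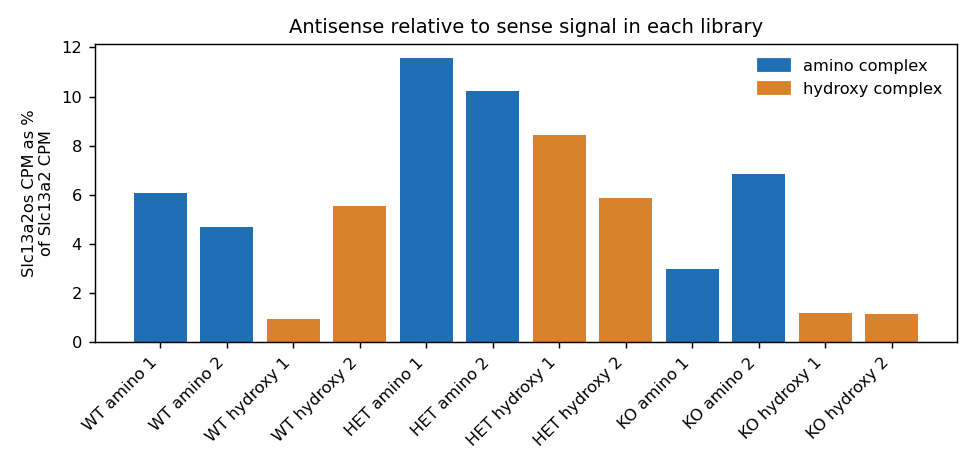
Slc13a2os CPM as a percentage of Slc13a2 CPM in each of the 12 libraries, coloured by zinc complex. The bars run from 0.943% in WT hydroxy 1 to 11.6% in HET amino 1.

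Genotype comparisons average both complexes and are not the contrast that chose the genes, so here the genes were tested. The high WT amino values and the shared spread enter both contrasts. These p-values are therefore not free of how the genes were picked. Slc13a2 averaged 237 ± 122 CPM in WT (SD, n = 4), 132 ± 25.2 in HET and 115 ± 39.7 in KO, so HET held 55.6% and KO 48.4% of the WT mean. The log2 change was −0.95 for KO against WT (SE 0.18, 95% interval −1.35 to −0.56, limma adjusted p = 0.0965) and −0.71 for HET against WT (SE 0.18, interval −1.10 to −0.32, adjusted p = 0.207). KO against HET stood at −0.24 (interval −0.63 to 0.15, adjusted p = 0.394). None passed the threshold of 0.05 after Benjamini-Hochberg adjustment over 14001 genes. KO libraries lay below WT libraries in 14 of 16 pairs, where the two-sided exact permutation test gave p = 0.114 (adjusted 0.514 over 9 comparisons, smallest possible p 0.0286). HET against WT gave an exact p of 0.171 (adjusted 0.514) and KO against HET one of 0.400 (adjusted 0.686). This test pools both complexes, so the difference between complexes is part of its spread. With genotype permuted within each complex, a test added after seeing the data, KO lay below WT in 8 of 8 pairs and the exact p was 0.0556 (adjusted 0.167), the smallest that 36 arrangements can give, so this test cannot reach 0.05. Within the amino complex, WT (296 and 382 CPM) stood above HET and KO (123 to 166 CPM). Within the hydroxy complex, WT (133 and 139 CPM) overlapped HET (98.9 and 139 CPM) and stood above KO (73.2 and 97.7 CPM). The share of all genes whose genotypes separate within a complex was not counted. With both KO amino libraries left out, here and below, KO was compared within the hydroxy complex only. The WT and HET amino libraries were then outside the comparison too. KO against WT was −0.68 in this setting (limma adjusted p = 0.388).

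Slc13a2os averaged 11.5 ± 9.35 CPM in WT (SD, n = 4), 11.999 ± 4.34 in HET and 4.26 ± 4.91 in KO. KO against HET came nearest to the threshold, at −1.68 (SE 0.44, 95% interval −2.66 to −0.70, limma adjusted p = 0.0503), and 6.84% of all genes passed in this comparison (3.44% higher and 3.4% lower in KO, with 27.5% at an unadjusted p under 0.05). It passed without WT hydroxy 1 (adjusted p = 0.0375) or WT hydroxy 2 (0.0377), libraries of neither group that enter through the shared spread, and in 6 of 21 alternative settings in all (adjusted p 0.0375 to 0.162). KO was below HET in 14 of 16 pairs of libraries, with KO amino 2 (11.4 CPM) above both HET hydroxy libraries (exact permutation p = 0.0857, adjusted 0.514). Within each complex KO lay below HET, and also below WT, in 8 of 8 pairs (exact permutation p = 0.0556 for each, adjusted 0.167, the smallest possible). The share of all genes that did so was not counted. KO against WT stood at −1.24 (interval −2.22 to −0.26, adjusted p = 0.421) and HET against WT at 0.44 (interval −0.54 to 1.42, adjusted p = 0.685). The HET against WT value was −0.0495 without WT hydroxy 1. With both KO amino libraries left out, and so within the hydroxy complex only, KO against HET was −2.22 (limma adjusted p = 0.138). KO against WT was −1.16 (adjusted p = 0.454).

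Noct averaged 46.5 ± 29.0 CPM in WT (SD, n = 4), 35.9 ± 13.1 in HET and 32.3 ± 15.6 in KO. The groups overlapped in each comparison. KO against WT was −0.39 (95% interval −0.90 to 0.11, limma adjusted p = 0.584), HET against WT −0.20 (interval −0.70 to 0.31, adjusted p = 0.742) and KO against HET −0.20 (interval −0.70 to 0.31, adjusted p = 0.598). HET against WT turned to 0.0353 without HET amino 1, and KO against HET to 0.0365 without HET amino 2. Without both KO amino libraries, KO against WT within the hydroxy complex was −0.04, and the WT amino libraries were outside this comparison too. Exact permutation p-values ran from 0.457 to 0.771 (adjusted 0.686 to 0.771), and from 0.111 to 0.667 (adjusted 0.200 to 0.667) within each complex. Of the 3 genes, 0 passed in KO against WT, where 0.0286% of all genes passed (0.0214% higher, 0.00714% lower, 9.79% at an unadjusted p under 0.05), and 0 in HET against WT, where 0% did (15.3% unadjusted). None had all 4 KO libraries below all 4 WT libraries (2.57% of genes), all 4 HET below all 4 WT (3.81%) or all 4 KO below all 4 HET (7.13%).

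Correlations were taken within each complex, so that the mean difference between complexes does not enter. The high WT amino values behind that difference remain among the 6 amino libraries. The p-values of pairs of the 3 genes are therefore not free of how the genes were picked. Between Slc13a2 and Noct, Pearson's r of log2(CPM + 1) was 0.87 over the 6 amino libraries (exact permutation p = 0.0472, adjusted 0.519 over 22 relations; Spearman's rho 0.89, exact p = 0.0333, adjusted 0.581). It was 0.95 without the 2 libraries farthest from the median of Slc13a2. Over the 6 hydroxy libraries r was 0.19 (exact p = 0.708, adjusted 0.876) and rho 0.37 (exact p = 0.497, adjusted 0.684). Slc13a2os and Noct gave r = 0.79 with hydroxy (exact p = 0.0375, adjusted 0.519; rho 0.83, exact p = 0.0583, adjusted 0.581) and 0.62 with amino (exact p = 0.182, adjusted 0.581; rho 0.54, exact p = 0.297, adjusted 0.684). The amino value of this pair turned to −0.28 without the 2 farthest libraries. Slc13a2 and Slc13a2os gave r = 0.63 with amino (exact p = 0.185, adjusted 0.581; rho 0.54, exact p = 0.297, adjusted 0.684) and 0.54 with hydroxy (exact p = 0.114, adjusted 0.581; rho 0.60, exact p = 0.242, adjusted 0.684). The hydroxy value dropped to 0.10 without the 2 farthest libraries. No relation passed after adjustment, the difference in r between complexes was not tested, and the 6 libraries of a complex come from 3 genotypes.

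Clock genes, set beside Noct because its RNA is known to oscillate with the clock, varied widely from mouse to mouse. Dbp, a clock-driven transcription factor, ranged from 7.20 to 164 CPM, and Per2, a repressor of the core loop, from 5.88 to 43.0 CPM. Per2 stood at 9.47 to 43.0 CPM with amino (median 21.8) and 5.88 to 14.6 CPM with hydroxy (median 9.60), in the direction of Noct. Dbp stood at 8.66 to 164 CPM with amino and 7.20 to 101 CPM with hydroxy. WT amino 1 was highest for Noct, Dbp and Per2 together. WT hydroxy 2 held 101 CPM of Dbp with 22.6 CPM of Noct, and HET amino 2 held 8.66 CPM of Dbp with 55.5 CPM of Noct. Within a complex, r of Noct with Per2 was 0.50 with amino (exact p = 0.308, adjusted 0.642; rho 0.37, exact p = 0.497, adjusted 0.684) and 0.63 with hydroxy (exact p = 0.171, adjusted 0.581; rho 0.77, exact p = 0.103, adjusted 0.581). Without the 2 farthest libraries these were 0.64 and 0.96. With Dbp r was 0.27 (exact p = 0.553, adjusted 0.876; rho 0.26, exact p = 0.658, adjusted 0.805) and 0.12 (exact p = 0.782, adjusted 0.894; rho 0.54, exact p = 0.297, adjusted 0.684), or 0.47 and 0.90 without the 2 farthest. With Arntl, the activator of the core loop, it was −0.49 (exact p = 0.321, adjusted 0.642; rho −0.37, exact p = 0.497, adjusted 0.684) and 0.08 (exact p = 0.894, adjusted 0.894; rho −0.49, exact p = 0.356, adjusted 0.684), or −0.47 and −0.79 without the 2 farthest. Over the list of 19 clock genes the median log2 change with hydroxy was −0.26 (4 above 0, 15 below, 0 past the threshold), beside 0.07 for all genes. The list ran from Per2 (−1.05), Per3 (−1.01) and Per1 (−0.87) to Arntl (0.66) and Nfil3 (0.81), genes given here after their values were seen. Among its most abundant members Nr1d1 was at −0.05, Bhlhe40 at −0.17, Nr1d2 at −0.13 and Tef at −0.74. The part of clock phase in the level of Noct was not tested, and the labels give no time of collection.

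No neighbour of either locus passed the threshold between complexes, where 0% of all genes passed. Within 200 kb of Slc13a2 the table lists 18 further genes, of which 16 were tested. Their median log2 change with hydroxy was 0.13 (−0.32 to 0.42), with 0 past the threshold. Of the 16, 3 had an unadjusted limma p under 0.05, which 8.96% of all genes had. Slc46a1, the intestinal folate importer and nearest upstream gene at 43.5 kb, ranged from 17.02 to 383 CPM, with 383 CPM in KO amino 2 and 17.02 CPM in HET amino 2. Unc119, the nearest on the other side at 48.1 kb, ranged from 2.67 to 8.59 CPM. Within 200 kb of Noct, 4 of 5 further genes were tested, all of them slightly higher with hydroxy (0.10 to 0.28, 0 past the threshold). Of all genes, 62.8% were above 0 in this comparison, with a median of 0.07. Elf2, a transcription factor gene on the opposite strand whose end lies 1.07 kb beyond Noct, stood at 28.1 to 42.9 CPM over all libraries. In the comparison of KO with HET, where 6.84% of all genes passed, 1 of the 20 tested neighbours passed, Ndufc1, a subunit of respiratory complex I (0.76, adjusted p = 0.0459 by limma).

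Other genes that handle citrate and dicarboxylates lay on both sides of 0 with the hydroxy complex. Of 10 transporters listed, 7 were tested, and with hydroxy 3 were above 0 and 4 below (median −0.04, 0 past the threshold). The mitochondrial citrate carrier Slc25a1 was at 0.17, the dicarboxylate carrier Slc25a10 at −0.04, the oxoglutarate carrier Slc25a11 at 0.05 and the apical anion exchanger Slc26a6 at −0.14. The family member Slc13a1, a sulfate transporter named here after its values were seen, was at −0.82 (range 6.99 to 90.8 CPM). Of 23 citric acid cycle genes, 16 were above 0 and 7 below with hydroxy (median 0.14, 0 past the threshold), beside 62.8% of all genes above 0. Citrate synthase Cs stood at −0.12, Ogdh at −0.32, Mdh1 at −0.05 and Mdh2 at 0.07. Between KO and HET, Slc25a1 rose in KO (0.82, limma adjusted p = 0.0234) and so did 4 of the 23 cycle genes, Sucla2 (0.62, 0.0331), Sdhb (0.50, 0.0442), Sdhc (0.62, 0.0271) and Sdhd (0.97, 0.048), where 3.44% of all genes rose. Sucla2 is a subunit of succinyl-CoA ligase, whose other subunits Suclg1 (adjusted p = 0.150) and Suclg2 (0.239) did not pass, and the other 3 are subunits of succinate dehydrogenase, whose subunit Sdha did not pass (0.171). Slc25a1 no longer passed without HET amino 2, HET hydroxy 1, any single KO library or both KO amino libraries. The count of 4 cycle genes dropped to 2 without HET hydroxy 2, to 1 without any WT library, and to 0 without HET amino 2, HET hydroxy 1 or any KO library, and ran from 0 to 5 over all settings.

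Genes related to nocturnin by function also lay on both sides of 0. For the lists that follow, 62.8% of all genes were above 0 with hydroxy, with a median of 0.07. Among 17 deadenylases and cofactors, 11 were above 0 and 6 below with hydroxy (median 0.06, 0 past the threshold). The CCR4-NOT scaffold Cnot1 stood at −0.24, the antiproliferative cofactors Tob1 at −0.08, Btg1 at 0.43 and Btg2 at −0.13. Among 10 genes of NAD and NADP metabolism the median was 0.07 (8 above 0, 2 below, 0 past the threshold), with the NAD kinase Nadk at 0.08 and the salvage enzyme Nampt at −0.00012. Naprt stood at 0.05 and Nadsyn1 at −0.01. Nampt (0.70, limma adjusted p = 0.0456) and Nmnat1 (0.77, adjusted p = 0.0331) rose in KO against HET, where 3.44% of all genes rose. This count of 2 dropped to 1 without HET hydroxy 2 and to 0 without any single WT library, HET amino 2, HET hydroxy 1, any single KO library or both KO amino libraries. Among 13 genes of chylomicron assembly and lipid uptake the median was 0.02 (8 above 0, 5 below, 0 past the threshold), with Apob at −0.39, Apoa4 at 0.26, Apoa1 at 0.22 and Fabp2 at 0.10. The lipid droplet gene Plin2 rose in KO against HET (0.72, limma adjusted p = 0.0367), against the same 3.44% of all genes. It no longer passed when any single WT or KO library, HET amino 2 or either HET hydroxy library was left out, nor without both KO amino libraries.

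**Figure D5:**
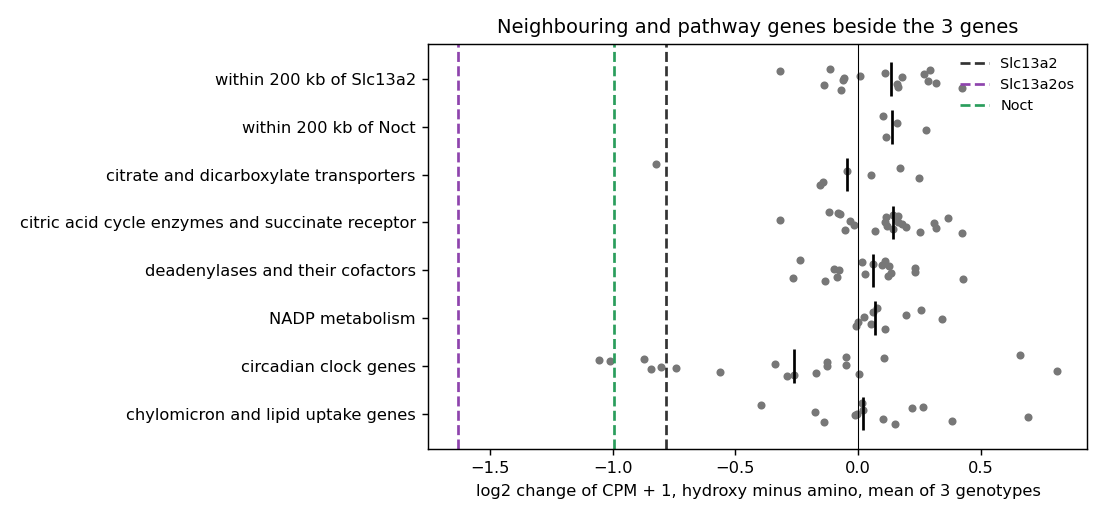
Log2 change of CPM + 1 with the hydroxy against the amino complex (mean of 3 genotypes) for genes near Slc13a2 and Noct and for 6 pathway lists. Each grey point is 1 gene, black ticks are list medians and dashed lines mark Slc13a2 (−0.78), Slc13a2os (−1.63) and Noct (−0.99). Clock genes reach furthest to both sides (−1.05 to 0.81), with a median of −0.26.

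Among 8265 genes with a mean of at least 10 CPM, those whose log2 levels were most like Slc13a2 over the 12 libraries included Rfng (Pearson r = 0.88), a glycosyltransferase of Notch receptors, Cdc42se2 (0.87), Hes2 (0.86) and Fam102a (0.84). For Noct the 5 most alike were Fam102a (0.91), Tepsin (0.89), Cdc42se2 (0.87), the nucleotide sugar transporter gene Slc35d1 (0.87) and the kinase gene Rps6ka4 (0.86). Fam102a and Cdc42se2 stood in both sets, beside r = 0.85 between Slc13a2 and Noct themselves. Rfng ranged from 23.9 to 40.9 CPM and followed Slc13a2 within amino (r = 0.85) and within hydroxy libraries (r = 0.97). Cdc42se2 followed Noct within amino libraries (r = 0.97) and not within hydroxy libraries (r = 0.10). These correlations describe 12 libraries that share the same groups, and the genes were picked as the highest of many.

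Age and gut markers were set beside the genes within each complex. Age and Slc13a2 gave r = −0.23 with amino (exact permutation p = 0.681, adjusted 0.876) and −0.47 with hydroxy (exact p = 0.256, adjusted 0.642). Age and Noct gave −0.55 (exact p = 0.264, adjusted 0.642) and 0.12 (exact p = 0.669, adjusted 0.876). Slc13a2 and Sis, the sucrase-isomaltase of the brush border, gave −0.21 (exact p = 0.717, adjusted 0.876) and 0.68 (exact p = 0.118, adjusted 0.581), and Slc13a2 and Fabp6 −0.14 (exact p = 0.881, adjusted 0.894) and 0.35 (exact p = 0.569, adjusted 0.876). Spearman's rho of these 8 relations ran from −0.72 to 0.49 (exact p 0.106 to 0.983, adjusted 0.581 to 0.983), and r without the 2 farthest libraries from −0.76 to 0.83. Summed enterocyte markers overlapped between complexes, at 12906 to 23867 CPM with amino and 10762 to 21267 CPM with hydroxy, and KO hydroxy 2, the lowest library for Slc13a2, was also lowest for them. Summed smooth muscle markers ran from 1136 to 6064 CPM with amino and from 865 to 5743 CPM with hydroxy. The part of smooth muscle was not tested.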

How the data were processed

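RNA-seq libraries from 12 mice were described from 1 table of CPM values deposited by the authors, each raised by 0.0001. Partek, TopHat2 and mm10 are named, per the submitters' processing notes, without version or role. No source used here gives the counter, annotation, gene filter or strand setting. The listed genes hold 62.0% to 71.8% of each library. Of the low values, 93.3% to 94.9% came out as whole reads (tolerance 0.05), too few to recover reads, and no count test was made. Depth cannot resolve differences below the 3-read floor.

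Genes reaching 1 CPM in 2 or more libraries (14001, the 3 genes among them) were transformed to log2(CPM + 1), which understates changes of low genes. Fold changes come from limma 3.58.1 in R 4.3.3, with 6 group means, eBayes with a trend, two-sided tests, 6 residual and 3.61 prior degrees of freedom, and Benjamini-Hochberg adjustment over all genes. The fit was also run on simulated data with the same spread setting for all genes and changes in KO only. That run does not show how the fit behaves on these libraries. Exact permutation tests (scipy 1.17.1) compared 4 with 4 libraries, also within each complex, and correlated 6. Labels name no shared litter, batch or day, and p-values measure the spread between these mice.

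Members and lists were chosen with earlier results of these data known. Named genes were the 3 genes, all genes within 200 kb, the 4 most abundant of each list with any that passed, Slc39a4, and the 5 most alike, of which 1 is not reported here. Alternatives were pseudocounts of 0.1 and 5, other filters and scalings, age, and left-out libraries. Without both KO amino libraries, KO was compared with WT and HET within the hydroxy complex only. Promoter sequences are from RefSeq (GRCm38.p6), where all 3 genes matched.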

Additional observations from a re-analysis of the deposited data

Results flagged for a closer look

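Noct in HET mice held a library that stood apart. HET amino 2 had 55.5 CPM against 28.7 to 30.2 CPM in the other 3 HET libraries, a gap of 0.943 of the range of the 4. HET amino 2 is also the library with 99.3 CPM of Fabp6, the lowest sum of proximal gut markers and 1539 genes at the floor of the table, and it came from the youngest mouse. The 4 libraries pool both complexes. Of 15 sets of libraries checked this way for the 3 genes, 1 was picked out, and chance picks about 1 in 20.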

How the results depend on the processing

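The difference between complexes kept its sign for all 3 genes in each genotype and in the mean under each alternative run, except Noct in HET without HET amino 2 (0.0427). Slc13a2os, the lowest of the 3, moved most with the pseudocount, to −2.61 in KO with 0.1, and to −1.003 in the mean, −1.37 in WT and −0.99 in KO with 5. Noct in HET was −0.91 without the 2 older HET mice. Leaving out single libraries gave −3.08 to −1.12 for Slc13a2os in WT, −2.64 to −1.24 for Slc13a2os in KO, −0.88 to 0.0427 for Noct in HET and −1.31 to −0.55 for Noct in KO.

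Between genotypes, Slc13a2 was lower in KO and in HET than in WT under each alternative run and passed in none (adjusted p 0.0552 to 0.470 and 0.129 to 0.694). Slc13a2os in KO against HET passed with a pseudocount of 0.1 (−2.11, adjusted p = 0.0484), a filter at a mean of 5 CPM (−1.68, 0.0451), median ratio scaling (−1.63, 0.0443) and age as a covariate (−1.68, 0.0408), and stood at −2.03 to −1.33 with single libraries left out. Signs that turned were those of Noct in HET against WT (0.0208 without the older HET mice, and −0.43 to 0.0353 with single libraries left out) and in KO against HET (−0.43 to 0.0365), and of Slc13a2os in HET against WT (−0.0495 to 0.93). With raw CPM, r over hydroxy libraries turned for Noct and Dbp (−0.16), Noct and Arntl (−0.0284) and Slc13a2 and Dbp (0.11), none past the threshold. Raw CPM changed no call of the exact permutation tests. Permuting within each complex cannot give a p below 0.0556.

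Counts over all genes were less stable. The setting without both KO amino libraries compares genotypes within the hydroxy complex only, so its counts belong to a different comparison. KO against WT called 4 genes, and 1 with a pseudocount of 0.1 or a filter at a mean of 5 CPM, 10 with a pseudocount of 5 or median ratio scaling, 23 with quantile normalization or age, and 1 to 14 with single libraries left out. KO against HET called 957, and 1651 with quantile normalization, 1646 with age, 451 without the older HET mice, 2 without both KO amino libraries (an alternative chosen after seeing the data) and 1 to 1396 with single libraries left out. HET against WT called 0, and 1 with no filter or without the older HET mice, 3 with age and 0 to 109 with single libraries left out. Between complexes the calls were 2 with no filter in KO, and 0 to 2 in the mean, 0 to 6 in HET and 0 to 4 in KO with single libraries left out. The causes were not tested. No paired analysis was possible because the labels give no replicate numbers, and numbers given in accession order pair no samples.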
